A study of Bos taurus with 81 samples.

Results

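The passage of the histone mark H3K27ac from the bovine germinal vesicle oocyte (GV) to the embryo with 2 cells (2C) was followed in 4 of the 81 peak lists of the series, 2 lists for each stage. These are all the lists whose labels name H3K27ac together with one of these stages, and each list comes from one library. The autosomes, 1 to 29, were cut into bins of 1 kb, and a bin was called marked where peaks covered at least 50% of it. A bin was called kept when marked in both GV and both 2C libraries, lost when marked in both GV libraries and in neither 2C library, and gained when marked in neither GV library and in both 2C libraries.

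The series profiled 4 histone marks by CUT&Tag, in which an antibody brings a transposase to the mark so that the nearby DNA is cut and tagged, from the oocyte to the blastocyst. GV oocytes are immature oocytes arrested in meiosis; they came from antral follicles of slaughterhouse ovaries and were taken before in vitro maturation. The 2C embryos were made by in vitro maturation and fertilisation with thawed semen, were grown in culture without inhibitor and were collected 32 h after insemination. Both groups carried the label of untreated controls, the zona pellucida was removed with pronase, and each library pooled about 500 oocytes or 1000 to 1500 blastomeres. Animals, breed and sex of the donors were not named, so the 2 libraries of a stage are samples of pooled cells, and their spread may be technical. A GV oocyte holds a maternal genome only and a 2C embryo a maternal and a paternal one, and this difference cannot be told apart from the difference in stage. H3K4me3, H3K27me3 and H3K9me3 of the same stages, with 2 lists each, make up 12 further lists. Later comparisons used H3K27ac in embryos with 4 and 8 cells (4C and 8C), in 8-cell embryos cultured with 50 µg/ml α-amanitin, and in morulae (MO), whole blastocysts (BL), and the 2 parts of the blastocyst, ICM (inner cell mass) and TE (trophectoderm).

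H3K27ac is the acetylated form of lysine 27 of histone H3. It is placed by the acetyltransferases CBP and EP300, removed by histone deacetylases, and found at active promoters and enhancers. The same lysine carries the methyl groups of H3K27me3, the mark of Polycomb repression, so that one histone tail cannot bear both. H3K4me3 marks promoters and, in oocytes, can form wide domains, and H3K9me3 marks heterochromatin. A GV oocyte close to full growth has made most of its RNA, whereas in cattle the main activation of the embryonic genome comes around the 8-cell stage, so the 2C embryo lies between these phases of transcription.

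The lists give peaks but no read totals, and their depth of sequencing is unknown. The deposited score, an unnamed whole number per peak, had a 1st percentile per 200 bp of peak of 11.6 and 8.42 in the GV lists and 8.00 and 8.35 in the 2C lists. The first GV library stood apart from the others in this floor and in its narrow peaks, with 57045 of its 158491 autosomal peaks under 500 bp against 12507 of 133148 in the second. The part of depth and of this library in the results below was not tested, except where values without it are given. The stage labels could not be checked against marker genes, because the gene annotation at hand was of another genome build.

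H3K27ac covered less of the genome at 2C than in the oocyte. The covered length of the autosomes was 127 and 142 Mb in the GV libraries and 55.0 and 67.8 Mb in the 2C libraries. The groups did not overlap, and the GV mean of 134 Mb ± 10.8 (SD, n = 2) stood against 61.4 Mb ± 9.04 (SD, n = 2) at 2C. In shares of the autosomes these lengths were 5.09% and 5.70% in GV and 2.21% and 2.72% in 2C. The log2 change was -1.13, which is 6.60 pooled SDs of the replicates, with a two-sided exact permutation p of 0.333, the smallest that 2 against 2 libraries can give.

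Peaks were also fewer. The GV lists held 158491 and 133148 autosomal peaks and the 2C lists 64570 and 69853, again with no overlap. The log2 change of the peak number was -1.11, or 8.07 pooled SDs, with the same smallest exact permutation p of 0.333. Fewer peaks therefore went with the shorter covered length in nearly the same proportion.

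The change in covered length was set against that of the 3 other marks over the same stages. Covered length had a log2 change of -0.48 for H3K4me3 and of -0.99 for H3K27me3. The H3K27ac change was lower than the H3K4me3 change by 0.65 on the log2 scale, and this difference had an exact permutation p of 0.389 over the 36 arrangements of the stage labels within the marks (Benjamini-Hochberg adjusted p 0.667). Against H3K9me3 the difference was -0.57 (exact permutation p 0.444, adjusted 0.667), and against H3K27me3 it was -0.15 (exact permutation p 0.778). No difference from another mark was shown at this number of libraries, where the smallest possible p is 0.0556. The sign against H3K27me3 rested on the first 2C library, without which the difference was 0.0019.

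The middle of the width distribution did not separate the stages, but its upper end did. Median peak width was 600 and 800 bp in GV and 750 and 850 bp in 2C, and the groups overlapped (log2 change 0.20, exact permutation p 0.667). This sign was not stable, since the log2 change of the median was -0.0028 without the first GV library and -0.83 once peaks under 3 kb apart were joined. Wide peaks, in contrast, were a feature of the oocyte lists. Peaks of 2 kb or more numbered 9004 and 12542 in GV and 1084 and 2306 in 2C. They held 20.7% and 26.2% of the covered length in GV and 4.92% and 8.69% in 2C, with no overlap (difference -16.6 percentage points, exact permutation p 0.333). Of peaks of 5 kb or more, 438 and 711 were called in GV and 10 and 33 in 2C. The widest peak measured 17700 and 18050 bp in the GV libraries against 7100 and 7900 bp in the 2C libraries. The joining of close peaks left the order in place but narrowed the gap: with gaps under 3 kb closed, peaks of 2 kb or more held 89.5% and 87.9% of the covered length in GV and 72.4% and 75.4% in 2C. The log2 change of this share was -1.83 as deposited, -0.74 with gaps under 1 kb closed and -0.26 with gaps under 3 kb closed. At that last setting, peaks of 5 kb or more held 68.9% and 67.0% of the covered length in GV and 43.8% and 49.4% in 2C.

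**Figure D1:**
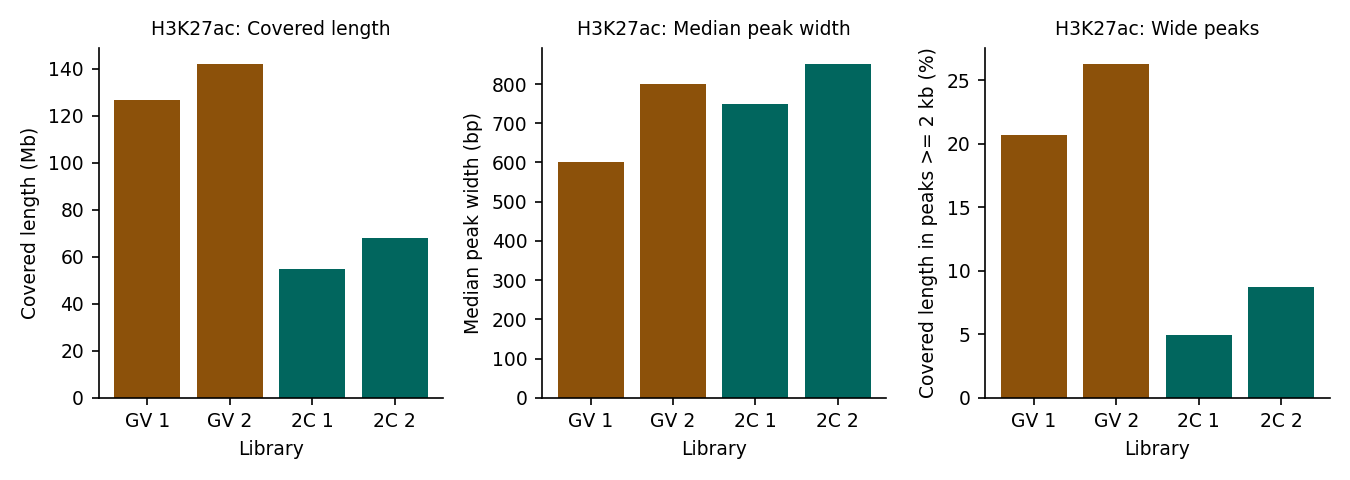
H3K27ac in the 4 libraries (x axis): covered length of the autosomes in Mb, median peak width in bp, and the part of that length lying in peaks 2 kb wide or wider, in %. Each bar is one library, brown for GV and green for 2C; covered length (127 and 142 against 55.0 and 67.8 Mb) and wide peaks (20.7% and 26.2% against 4.92% and 8.69%) do not overlap between the stages, while the median widths do.

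Most oocyte bins carried no H3K27ac in either 2C library. Of 2488055 autosomal bins, 101428 (4.08%) were marked in both GV libraries and 29791 in both 2C libraries. Lost bins numbered 67757, which is 2.72% of all autosomal bins and 66.8% of the GV bins. Kept bins numbered 12430 (0.5% of all bins, 12.3% of the GV bins), and the remaining 21241 GV bins (20.9%) were marked in 1 of the 2C libraries. Gained bins numbered 13004 (0.523% of all bins), so there were 5.21 lost bins for each gained one. Of the bins marked in both 2C libraries, 41.7% had been marked in both GV libraries, 14.6% in 1 and 43.7% in neither.

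These counts rest on the definition and on the number of libraries it uses. Leaving a library out drops a condition from each class, so each count can then only rise. Without the first or the second 2C library, kept bins numbered 25223 or 20878 and gained bins 36696 or 28832, and without the first GV library lost bins numbered 107150. Lost bins made up 83.9% of the lost and gained bins together. When all 4 lists were trimmed to the covered length of the shortest one by keeping the peaks of highest score, 25577 bins were lost and 17663 gained, and the lost share was 59.2%. Trimming by score keeps wide peaks, with medians of 1600 and 2000 bp in the trimmed GV lists against 750 and 1000 bp in the trimmed 2C lists. The share of GV bins lost was 61.9% in the trimmed lists and lay between 69.3% and 79.4% when a library was left out.

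Replicates set the scale for these shares. Of the bins marked in the first GV library, 80.7% were marked in the second, and 67.4% of those in the second were marked in the first. The same GV bins were found in a single 2C library in 17.6% to 22.9% of cases, well under the recurrence between the GV libraries. The 2C libraries recurred less in each other, at 51.2% and 41.2%. Bins of a 2C library were found in a single GV library in 39.7% to 45.6% of cases, a range that meets the recurrence between the 2C libraries. Read from the 2C side, a bin was thus found about as often in a GV library as in the other 2C library, although GV libraries also mark more bins (125619 and 150477 against 58215 and 72338).

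Loss was graded by the width of the oocyte peak. In the first GV library, 78.1% of the peaks under 500 bp met no 2C peak, against 69.5% of those from 500 bp to 1 kb, 50.8% from 1 to 2 kb, 30.5% from 2 to 5 kb and 13.0% at 5 kb or more. The second GV library gave the same order, from 79.1% down to 15.6%. A wide peak offers more bases to meet, so bins were also counted. Lost bins made up 72.5% and 72.9% of the GV bins under peaks of 500 bp to 1 kb and 56.1% and 58.2% of those under peaks of 5 kb or more. The gradient was therefore shallower per bin than per peak, but in the same direction in both GV libraries. By the deposited score, which tracks width with rank correlations of 0.951 and 0.920, the peaks were split into 5 equal parts: the part with the lowest scores met no 2C peak in 79.0% and 78.0% of cases and the part with the highest in 43.5% and 40.5%.

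Oocyte regions differed in how much of them was covered at 2C. The stretches covered in both GV lists formed 131428 regions with a median width of 550 bp and a total of 95.9 Mb. Of these regions, 64.4% had no base under a 2C peak, and 15.2% had a stretch covered in both 2C lists. Regions met in this way had a median width of 800 bp, of which a median of 500 bp was covered in both 2C lists. Of the 5973 regions of 2 to 5 kb, 28.0% had no 2C peak, and a further 28.4% had a 2C peak but no stretch covered in both 2C lists. Another 33.8% were covered in both over less than 50% of their length, 9.51% over 50% or more but not all of it, and 0.318% over the whole length. Of the 234 regions of 5 kb or more, 10.3% had no 2C peak, 63.2% were covered in both 2C lists over less than 50% of their length, 5.56% over 50% or more, and 0 over the whole length. By contrast, regions under 500 bp that were met at all were most often covered whole, 5.34% of such regions against 1.14% covered for less than 50%. Whole cover depends on the widths themselves. The 2C peaks had median widths of 750 and 850 bp, and only 10 and 33 of them reached 5 kb. How much of the contrast between wide and narrow regions follows from this was not tested. In all, 11.9% of the region length was covered in both 2C lists.

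Bins of each class had neighbours of their own class more often than autosomal bins at large. A lost bin adjoined another lost bin in 57.1% of cases, against 4.70% of all bins that adjoined a lost bin. For kept bins the shares were 28.5% against 0.949%, and for gained bins 33.4% against 0.977%. A lost bin adjoined 32.0% of kept bins (4.70% of all bins). A kept bin adjoined 6.60% of lost bins (0.949% of all bins). Kept and lost bins are both oocyte bins, which mostly adjoin each other, so all bins are too low a baseline for these shares. Among oocyte bins, kept bins had a lost neighbour least often. The share was 57.1% for lost bins and 42.1% for oocyte bins marked in 1 of the 2C libraries. A kept neighbour was least common for lost bins, against 28.5% of kept bins and 16.7% of those marked in 1 of the 2C libraries. Most runs were nonetheless a single bin, 67.4% of lost, 85.5% of kept and 82.8% of gained runs. Gained bins adjoined an oocyte bin in 7.31% of cases, and 6.67% of all autosomal bins did so. The latter share includes the oocyte bins themselves, which cannot be gained. Of these, lost bins, kept bins and those marked in 1 of the 2C libraries adjoined another oocyte bin in 70.2%, 70.2% and 70.0% of cases. For bins that are not oocyte bins the share is therefore under 6.67%, so 6.67% is too high a baseline for gained bins. Most gained bins thus did not border on a bin marked in both GV libraries.

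Every autosome had less H3K27ac at 2C. On all 29 autosomes (100% of those compared) both 2C shares lay under both GV shares. The log2 change of the mean share ranged from -1.69 on chromosome 10 to -0.38 on chromosome 29, with a median of -1.13. Chromosome 10 had GV shares of 5.90% and 6.56% and 2C shares of 1.83% and 2.04%. Chromosome 29 had GV shares of 5.73% and 6.39% and 2C shares of 4.22% and 5.08%, the closest approach of the stages on that measure. The densest chromosome in the oocyte, 19, had 11.9% and 13.0% in GV and 5.76% and 7.24% in 2C. Autosomes share their libraries and are not replicates of the change.

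The order of the autosomes in the oocyte was largely found again at 2C. Spearman's rho of the chromosome shares was 0.997 between the GV libraries, 0.976 between the 2C libraries and 0.837 to 0.875 between a GV and a 2C library, over 29 autosomes. The highest percentages of GV bins lost were 72.3% on chromosome 1, 72.2% on chromosome 9 and 71.9% on chromosome 4. Lowest were 55.1% on chromosome 25, 58.2% on chromosome 19 and 59.4% on chromosome 29. The percentage lost went with chromosome length (Spearman's rho 0.597 over 29 autosomes) and against the density of GV bins (rho -0.577), and length and density themselves had a rho of -0.518. Gained bins numbered 2.28 to 17.0 per Mb, with the highest value on chromosome 25.

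**Figure D2:**
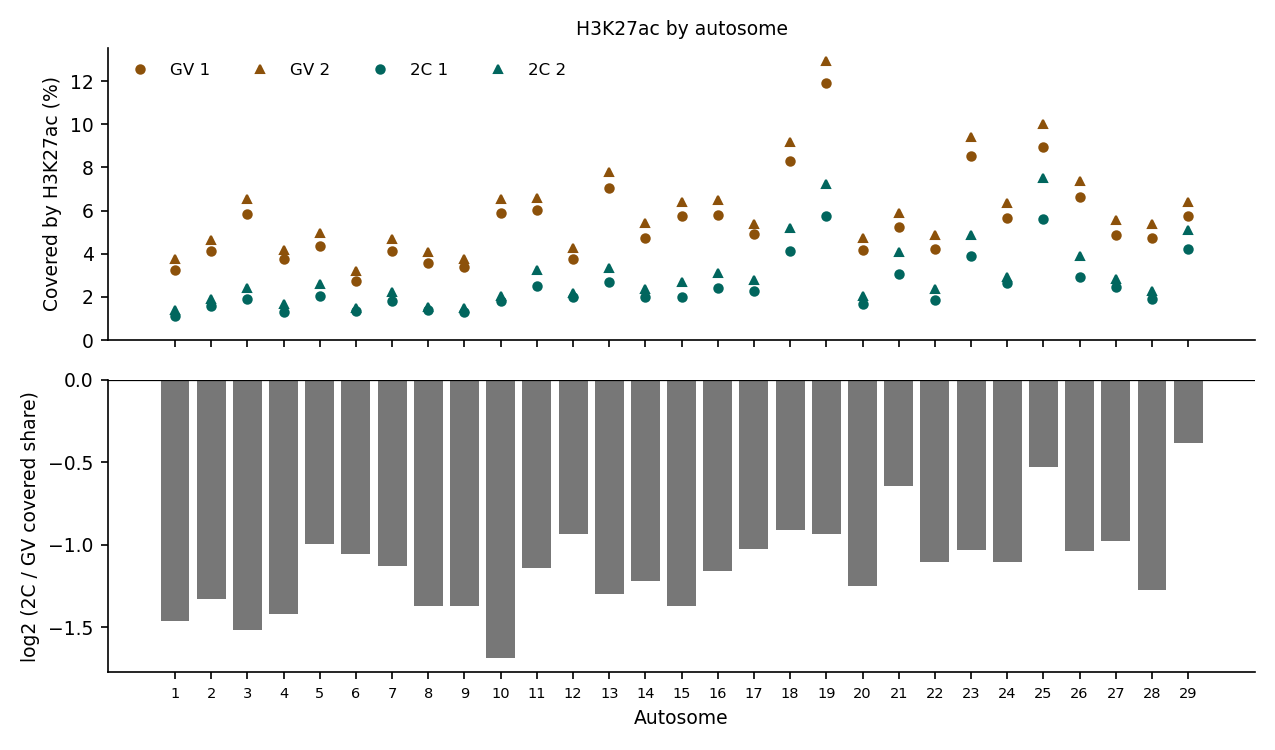
Share of each autosome covered by H3K27ac peaks in % (top; brown GV, green 2C, circles first and triangles second library) and log2 change of the mean share from GV to 2C (bottom), with autosomes 1 to 29 on the x axis. The 2C points lie under the GV points on all 29 autosomes, and the bars run from -1.69 on chromosome 10 to -0.38 on chromosome 29.

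Gained bins were concentrated near the far ends of the chromosomes, counted from the highest peak end. The last 2 Mb of the autosomes hold 2.33% of the bins and held 1.65% of the lost bins, but 18.2% of the gained bins. Of the bins there without oocyte H3K27ac, 7.23% and 9.66% were marked in the 2C libraries, against 1.10% and 1.39% of such bins elsewhere. The share of gains in the last 2 Mb exceeded the share of bins on 26 of 29 autosomes, with a median of 17.2% and a range of 0.713% to 42.8%. On 20 autosomes this window held more gained than lost bins. Loss was also less common there: 48.4% of the GV bins in the window were lost, against 67.3% of those more than 2 Mb from either end. The first 2 Mb, with as many bins as the last, held 3.05% of the gained bins, and 64.5% of their GV bins were lost. Gained bins made up 0.683% of the bins there, 4.08% in the last 2 Mb and 0.432% away from both ends. Of the GV bins, 17.8%, 24.7% and 11.8% were kept in these windows. The first 2 Mb thus differed from the rest in the same direction as the last, but less.

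H3K4me3, the promoter mark, covered kept bins far more often than lost ones. In the 2 GV H3K4me3 libraries, 33.2% and 42.9% of lost bins were covered, against 79.1% and 86.6% of kept bins and 5.82% and 7.47% of all autosomal bins. The kept-minus-lost difference was 44.8 percentage points ± 1.53 (SD of the 2 H3K4me3 libraries with the bin classes held fixed, n = 2). This SD leaves out the spread of the H3K27ac libraries that define the classes. In bins covered by both H3K4me3 libraries the difference was 48.7 points. It was 36.6 or 36.3 points without the first or the second 2C H3K27ac library. Counting bins covered in both libraries, the shares were 27.4% of lost, 76.1% of kept and 4.79% of all bins. At 2C, H3K4me3 covered 21.9% and 22.9% of lost bins and 76.9% and 76.5% of kept bins in single libraries (15.8%, 68.0% and 3.44% of lost, kept and all bins in both). Lost bins were therefore above the genome in H3K4me3 at both stages, and far under the kept bins.

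Seen from the oocyte, GV bins with H3K4me3 in both libraries were lost in 45.9% of cases and kept in 23.4%. GV bins with no H3K4me3 in either library were lost in 85.7% of cases and kept in 3.19%. Single 2C libraries lacked H3K27ac in 64.5% and 58.0% of the first kind and in 92.4% and 90.1% of the second. This contrast was present at every peak width. Among bins whose peaks measured 500 bp to 1 kb in both GV libraries, 51.9% with H3K4me3 and 89.2% without were lost, and at 5 kb or more the shares were 36.2% and 74.7%. Bins under the widest peaks without H3K4me3 were thus lost more often than bins under narrow peaks with it. H3K4me3 itself was retained in both 2C libraries in 42.1% of the lost bins that had it in the oocyte and in 79.1% of the kept ones, against 53.8% of all bins with GV H3K4me3, which makes 2.58% of autosomal bins with H3K4me3 in all libraries of both stages.

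**Figure D3:**
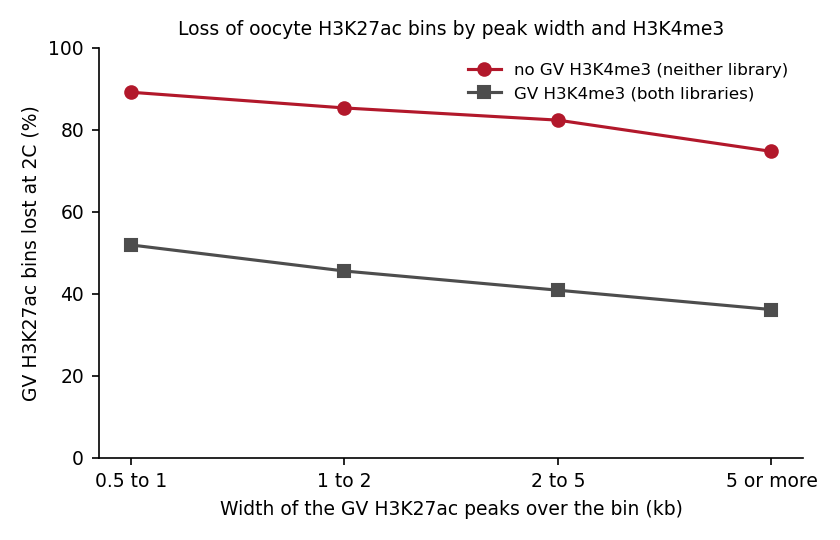
Percentage of GV H3K27ac bins lost at 2C (y axis) by the width of the GV peaks over the bin in kb (x axis, same class in both GV libraries), for bins with H3K4me3 in both GV libraries (squares) and in neither (circles). The line without H3K4me3 runs from 89.2% to 74.7% and stays above the line with it, which runs from 51.9% to 36.2%.

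H3K27me3, the Polycomb mark, covered gained bins in the oocyte more often than lost, kept or all bins. In the 2 GV H3K27me3 libraries, 67.0% and 65.8% of the gained bins were covered, against 6.72% and 4.40% of lost bins, 20.9% and 17.1% of kept bins and 9.55% and 9.55% of all bins. The gained-minus-kept difference was 47.4 percentage points ± 1.83 (SD of the 2 H3K27me3 libraries with the bin classes held fixed, n = 2). With coverage in both libraries, the shares were 62.2% of gained, 3.82% of lost, 15.6% of kept and 7.28% of all bins. Lost bins were thus under the genome in oocyte H3K27me3 and gained bins far over it. Gained bins lack GV H3K27ac by definition. Among bins without it, those with H3K4me3 and H3K27me3 outnumbered those with H3K4me3 alone, at 38950 against 15600. How much of the H3K27me3 share of gained bins follows from their H3K4me3 and this definition was not tested. The kept-minus-lost difference in bins covered by both libraries was 11.8 points, and 7.84 points without the second 2C library.

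By 2C this H3K27me3 was mostly gone from the gained bins. At that stage 8.41% and 10.6% of them were covered, against 4.42% and 5.26% of all bins (6.94% and 3.41% in both libraries). Of the gained bins with oocyte H3K27me3, 85.8% had none in either 2C library, while 71.3% of all bins with oocyte H3K27me3 had none (5.19% of autosomal bins). H3K4me3 stayed on the gained bins: GV libraries covered 68.7% and 76.5% of them and 2C libraries 75.7% and 74.0%. In both GV libraries together H3K4me3 covered 65.0% of the gained bins, and 48.2% or 48.7% when the first or the second 2C library was left out of their definition. For kept against lost bins, 2C H3K27me3 differed by 0.903 points in bins covered by both libraries, a difference that changed sign with the coverage rule (-0.134 where any covered base marked a bin).

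H3K9me3, the heterochromatin mark, was nearly absent from oocyte H3K27ac. GV H3K9me3 libraries covered 0.183% and 0.244% of lost bins, 2.22% and 2.21% of kept bins, 6.11% and 6.71% of gained bins and 7.54% and 7.47% of all bins. In both libraries the shares were 0.111%, 2.07%, 5.50% and 5.82%. The small excess of kept over lost bins was 1.96 points and was 0.898 points once 250 bins marked in all 12 lists of the other marks at GV and 2C were left out. It was 0.962 points without the first 2C library and 1.199 points without the second. At 2C, H3K9me3 covered 2.31% and 2.62% of lost bins and 2.18% and 2.20% of kept bins, against 5.09% and 5.09% of all bins (1.61%, 1.75% and 3.75% in both libraries). Lost bins thus stayed under the genome in H3K9me3 and in H3K27me3 at 2C. Their H3K9me3 share in both libraries nonetheless rose from 0.111% to 1.61%, while that of all bins fell from 5.82% to 3.75%. Among bins with H3K9me3 in neither GV library, 1.46% of lost bins had it in both 2C libraries. The same held for 0.461% of kept and 0.718% of all such bins, and for gained bins slightly less often than for lost ones. Of the lost bins, 82.1% had none of the 3 other marks called in both of its 2C libraries, and 71.1% had none called in both of its GV libraries, against 91.8% and 84.5% of all autosomal bins.

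**Figure D4:**
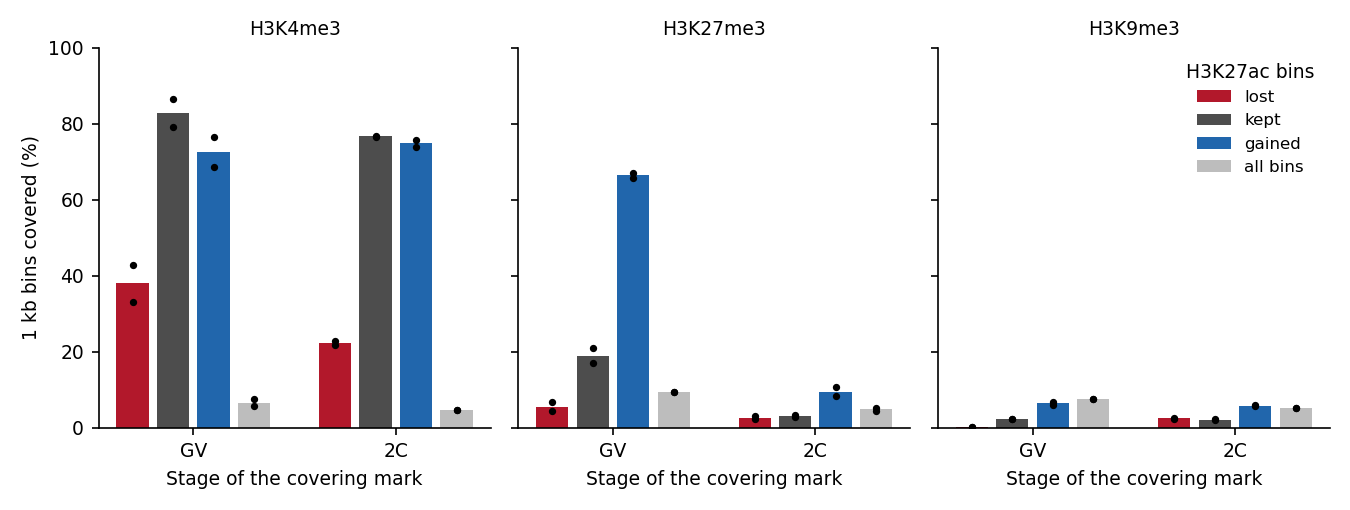
Percentage of 1 kb bins (y axis) covered by H3K4me3, H3K27me3 and H3K9me3 at GV and at 2C (x axis) for lost, kept and gained H3K27ac bins and for all autosomal bins. Bars are means of 2 libraries and dots the libraries; kept bins stand highest in GV H3K4me3 (79.1% and 86.6%), and gained bins in GV H3K27me3 (67.0% and 65.8%), which covers 8.41% and 10.6% of them at 2C.

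The 2 marks together set the gained bins apart more than either did alone. H3K4me3 and H3K27me3, without H3K9me3, were present in both GV libraries over 47.8% of the gained bins, 12.1% of the kept, 2.28% of the lost and 1.98% of all bins. The rate of gain was then taken among bins without H3K27ac in either GV library, with classes free of the other marks in both of their GV libraries. In bins with H3K4me3 and H3K27me3 it was 15.8%, or 6158 of 38950 bins, and the single 2C libraries marked 25.2% and 31.9%. In bins with H3K4me3 alone the rate was 9.88% (18.6% and 22.5% in single libraries). In bins with H3K27me3 alone it was 0.634% (2.00% and 2.71% in single libraries), in bins with H3K9me3 alone 0.374%, and in bins with no mark 0.0598%, against 0.562% over all such bins (1.25% and 1.59%). Bins with H3K27me3 alone were thus slightly over the overall rate of gain, at 0.634% against 0.562%. In single libraries they were further over it, at 2.00% and 2.71% against 1.25% and 1.59%. Their rate of gain was also above that of bins with no mark, 0.0598%. Bins with H3K4me3 were far over the overall rate with or without H3K27me3.

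Within the bins that had carried both marks, the rate differed by what remained at 2C. Where H3K4me3 was in both 2C libraries and H3K27me3 in neither, 27.9% were gained (40.4% and 49.0% in single libraries). Where both marks remained, 8.78% were gained (15.1% and 23.5%). Where H3K4me3 was in neither 2C library, the rate was 2.66% without H3K27me3 and 0.263% with it. H3K27ac at 2C was thus highest in the bins that held H3K4me3 and no longer held H3K27me3, in both libraries.

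Oocyte bins with these marks also differed in how often they kept H3K27ac. Loss was 34.7% in GV bins with H3K4me3 and H3K27me3, 47.9% with H3K4me3 alone and 86.3% with no mark. Single 2C libraries lacked H3K27ac in 54.9% and 46.1%, in 66.4% and 60.2%, and in 92.7% and 90.6% of these bins. These 3 classes kept this order in each 2C library. Loss was 66.6% in the 665 GV bins with H3K27me3 alone and 52.5% in the 40 with H3K9me3 alone. Single 2C libraries lacked H3K27ac in 82.3% and 74.1% of the former and in 62.5% and 60.0% of the latter.

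The chromosome ends were rich in the same pair of marks. Bins with H3K4me3 and H3K27me3 in the oocyte made up 13.4% of the last 2 Mb and 1.69% of the remainder. The rate of gain in these bins was 21.4% in the last 2 Mb and 14.6% outside. In single 2C libraries the rates were 30.2% and 40.0% against 24.0% and 30.1%, so that the second value for the remainder lies just under the first for the ends. For bins with no mark the rates were 0.396% and 0.0557%. In each of the 5 classes of oocyte marks the rate was higher at the ends.

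The classes are illustrated by the longest runs of consecutive bins of each, in coordinates of the ARS-UCD1.2 build. No gene annotation of this build was used, so genes are not given. The longest lost run spanned 20 kb of chromosome 15, from 45249001 to 45269000. GV libraries covered 94.5% and 93.8% of it and 2C libraries 0% and 0%, and of its 20 bins 1 had GV H3K4me3 and none had H3K27me3 or H3K9me3 in both libraries of either stage. The next lost runs, both of 17 kb, lay on chromosome 10 from 80576001 to 80593000 and on chromosome 15 from 52210001 to 52227000. They had GV H3K4me3 in 8 and 5 of their 17 bins and 2C H3K4me3 in none.

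The longest gained run spanned 17 kb of chromosome 25, from 897001 to 914000. GV libraries covered 0% and 0% of it and 2C libraries 87.4% and 91.5%. H3K27me3 covered all 17 bins in the oocyte and none at 2C, while H3K4me3 covered 14 bins in the oocyte and 17 at 2C. The gained runs of 14 kb on chromosome 5 (119337001 to 119351000) and 11 kb on chromosome 6 (115939001 to 115950000) had GV H3K27me3 in 10 and 11 bins and 2C H3K27me3 in none. Their H3K4me3 covered 9 and 9 bins in the oocyte and 14 and 11 bins at 2C.

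Of the kept runs, the longest carried all marks. The 3 longest spanned 12 kb of chromosome 16 (818001 to 830000), 8 kb of chromosome 21 (678001 to 686000) and 7 kb of chromosome 13 (359001 to 366000). On chromosome 16, H3K4me3 in the oocyte covered 11 of the 12 bins, and H3K27me3 and H3K9me3 covered all 12 at both stages. On chromosome 21 all 3 other marks covered all 8 bins at both stages. On chromosome 13, GV H3K4me3 covered 6 of 7 bins and 2C H3K9me3 3 of 7, and the other marks and stages covered all 7. That run tied at 7 kb with runs on chromosome 19 (42639001 to 42646000) and chromosome 27 (6219001 to 6226000) and is listed for its lower chromosome number. The chromosome 27 run had all 3 other marks in all 7 bins at both stages, whereas the chromosome 19 run had H3K4me3 in all 7 bins and H3K27me3 and H3K9me3 in none. Bins called for every mark at once numbered 250 on the autosomes (0.0100%), of which 134 were kept (1.08% of the kept bins), 6 lost and 11 gained. The counts of lost and kept bins barely moved without them, but the longest kept run was then 7 kb.

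The classes were then followed into later stages, which the definition had not used. At 4C, H3K27ac was marked in both libraries in 28.9% of kept, 16.8% of gained and 1.73% of lost bins, against 0.597% of all bins. At 8C the shares were 35.2% of kept, 13.9% of gained, 14.9% of lost and 2.56% of all bins. Lost bins were thus the least often marked of the classes at 4C, though above all bins, and at 8C they stood level with gained ones. In single 8C libraries lost bins had 19.3% to 19.8% and gained bins 18.4% to 19.9%, so that the libraries overlapped.

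From the morula on, lost bins stood above gained bins in every H3K27ac group. At MO both libraries marked 16.2% of lost, 10.3% of gained, 26.7% of kept and 3.54% of all bins. The shares were 10.6%, 5.34%, 17.6% and 1.71% at BL, 17.8%, 8.98%, 25.3% and 3.21% in ICM, and 11.0%, 5.88%, 18.1% and 1.89% in TE. Over the 6 later groups grown without inhibitor, 69.9% of lost, 66.0% of gained and 41.6% of kept bins were marked in both libraries of none, as were 92.8% of all bins. Kept bins were the most often marked in each of these groups. Open chromatin by ATAC-seq, in all 3 libraries of a group, covered 16.0% of lost, 30.6% of kept, 11.97% of gained and 2.35% of all bins at BL. In ICM these shares were 15.4%, 27.1%, 9.56% and 2.21%, and in TE 15.4%, 27.4%, 10.3% and 2.31%.

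Embryos grown with α-amanitin, which blocks RNA polymerase II, gave another picture at the 8-cell stage. The inhibited 8-cell libraries marked 60.6% and 61.9% of the gained bins, and the control 8C libraries 19.9% and 18.4%. For kept bins the values were 69.3% and 70.3% with the inhibitor and 42.9% and 42.1% without. Neither pair of groups overlapped, and the differences were 42.1 and 27.3 percentage points beside SDs of at most 1.07 points. All autosomal bins did not differ in this way, at 3.85% and 4.13% with the inhibitor and 3.88% and 3.84% without. Lost bins were marked at 16.9% and 17.7% with the inhibitor and 19.8% and 19.3% without, a difference of -2.23 points that turned to 0.291 without the second 2C library. In both inhibited libraries the shares marked were 61.1% of kept, 50.9% of gained, 11.96% of lost and 2.65% of all bins. The difference for gained bins was 26.9 points when the first 2C library was left out of their definition. With 2 against 2 libraries no test could pass, and the smallest exact permutation p is 0.333. The gained run on chromosome 25 was marked in 16 of its 17 bins with the inhibitor and in none at 8C, and the gained runs on chromosomes 5 and 6 in 13 and 11 bins against none and 5.

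**Figure D5:**
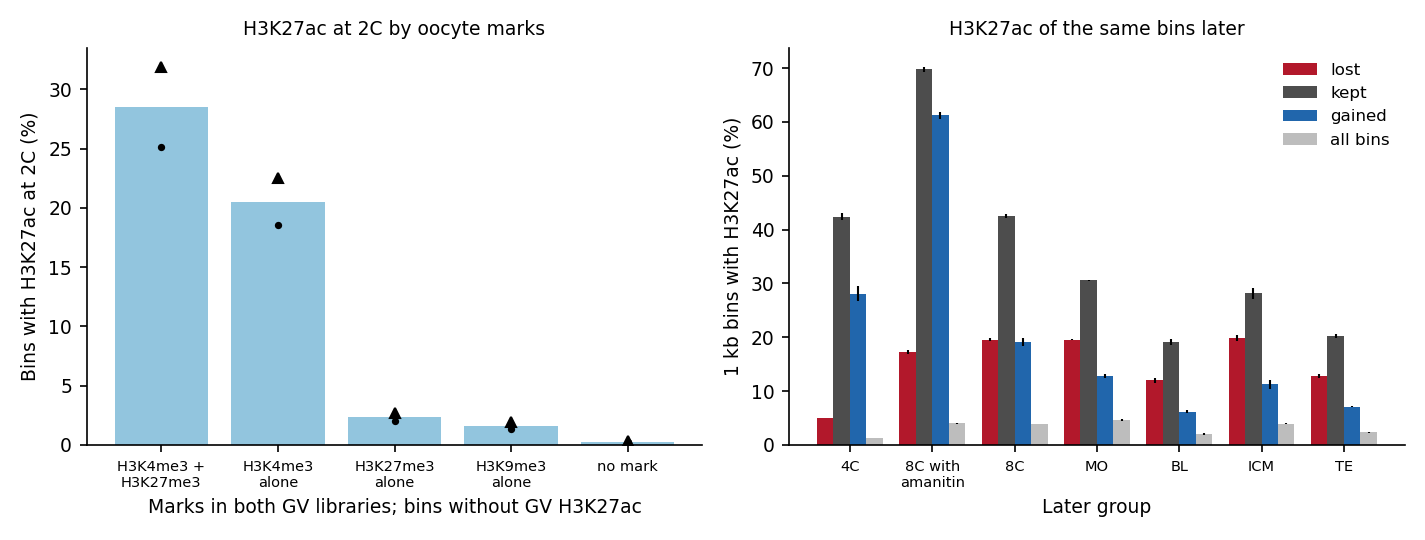
Left: percentage of bins without GV H3K27ac that carried it at 2C (y axis) by the marks of both GV libraries (x axis); bars are means of the 2C libraries, the circle is the first and the triangle the second library, and bins with H3K4me3 and H3K27me3 stand highest (25.2% and 31.9%). Right: percentage of lost, kept, gained and all bins with H3K27ac in each later group (x axis), with bars for the mean of 2 libraries and lines from the lower to the higher library; gained bins stand at 60.6% and 61.9% in 8-cell embryos with α-amanitin and at 19.9% and 18.4% in those without.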

How the data were processed

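Each library has its own deposited peak list, and the libraries were therefore called one by one. The submitters' processing notes name SAMtools 1.9, Picard 2.26.10, BWA 0.7.9a, cutadapt 1.8.3, Trim Galore 0.4.0, SICER and genome build ARS-UCD1.2. The deposited file names point to epic2, so the caller, like its cutoff and control, was not settled. The deposited score is an unnamed whole number per peak and served only to rank peaks within a list and as a floor per 200 bp. H3K27ac peaks lie on a 50 bp grid with gaps of at least 100 bp.

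Peaks on the 29 autosomes were overlaid on 1 kb bins, over 2488 Mb up to the highest peak end of each chromosome, with pandas 2.3.3 and NumPy 2.4.6 under Python 3.11.15 and drawn with matplotlib 3.10.9. Tests were exact permutations of library labels. Shares over bins carry no test, because bins are not replicates. The counting of classes was checked on simulated peaks that lay within single bins, with the same marked bins in both libraries of a stage. This does not show how well bins are classified in the deposited lists, where peaks cross bins and replicates differ. The named regions are the 3 longest runs of each class (ties by the lower chromosome number and start; kept runs tied with the third are given too) and the 3 autosomes with the highest and the 3 with the lowest share lost, besides chromosomes 10, 19, 25 and 29, named as extremes of a range. Members, classes and comparisons were chosen with earlier results of these data known, and the split by paired oocyte marks, the chromosome ends and the α-amanitin comparison were added after values had been seen. Marker genes and gene names were not analysed here for want of an annotation of the build.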

Additional observations from a re-analysis of the deposited data

How the results depend on the processing

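The lists carry no read totals, so depth and its limit on weak peaks are unknown, and 2 libraries a stage limit every test. Of 198 alternative values over 26 results, 80 stayed the same in sign or within a set margin, 101 moved beyond that margin and 17 changed sign. The loss of covered length, peaks and wide peaks kept its direction in every alternative run; trimming to equal covered length gives no value for covered length by construction. Where a value below moved, the cause was not tested, except for bin counts that move by construction. Coarser bins and stricter coverage leave fewer bins. Leaving out a library drops a condition from each class, so the numbers of lost, kept and gained bins can only rise.

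With any covered base marking a bin, 114506 bins were lost, 31787 kept and 22308 gained (61.3% of GV bins lost), and with the whole bin covered 17144, 486 and 1158 (86.5%). Bins of 200 bp gave 346782, 63651 and 61049, and bins of 5 kb 11495, 489 and 949 (88.9%). Trimmed lists gave 25577 lost and 5951 kept (61.9%), and the higher-scored 50% of peaks (upper 50%) 6334 kept and 8615 gained (74.4%). Leaving out one library at a time gave 76205 to 107150 lost, 13895 to 25223 kept and 14469 to 36696 gained bins, and 69.3% to 79.4% lost. GV regions met by both 2C lists over at least 50% of their length made up 10.1%.

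The log2 change of median width was -0.055 in the higher-scored 50% of peaks, -0.072 and -0.83 with peaks under 1 and 3 kb apart joined, and -0.0028 to 0.41 with a library left out. The difference from H3K27me3 in log2 covered length was -0.30 to 0.0019 with a library left out.

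Kept-minus-lost coverage by GV H3K4me3 was 48.7 percentage points and, in turn for bins in GV peaks of 1 to 2 kb, the upper 50%, coverage in at least 1 library and trimmed lists, 47.1, 46.8, 40.8 and 44.8, and 36.3 to 51.8 with a library left out. For 2C H3K4me3 these were 52.2, 49.2, 53.3, 56.5 and 48.4, with 57.6 for any covered base and 37.2 to 54.1. For GV H3K27me3 the upper 50%, at least 1 library and trimmed lists gave 13.5, 15.0 and 9.84, and leaving out a library 7.84 to 13.8. For GV H3K9me3 the values were 2.01 (1 to 2 kb), 3.50, 2.05 and 2.93, with 1.25 for any covered base, 0.898 without the bins marked in all 12 other lists, and 0.962 to 1.85. For 2C H3K27me3 they were 3.02 (upper 50%), -0.117 (at least 1 library), -0.134 (any base), 2.16 (trimmed), -0.148 (without those bins) and 0.0028 to 0.773. For 2C H3K9me3 the main value was 0.147, against -0.108 (1 to 2 kb), 1.44, -0.696, -0.458, 1.05 and -0.915 in the same order, and -0.271 to 0.0733.

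Gained bins under GV H3K27me3 made up 63.5% (upper 50%), 70.6% (at least 1 library), 64.0% (any base) and 52.2% (trimmed), and 50.7% to 59.2% with a library left out. Under GV H3K4me3 they made up 72.2%, 80.2% and 72.4%, and 48.2% to 66.1%. In the last 2 Mb lay 19.7% (upper 50%) and 15.0% (trimmed), and 13.4% to 17.2%. The α-amanitin difference was -3.11 (trimmed) and 1.56 (any base) points for lost bins, with -2.08 to 0.291, 22.8 and 32.1 for kept, with 20.4 to 28.7, and 47.4 (any base) for gained, with 26.9 to 41.5.

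Replicate numbers did not pair the libraries: the first-minus-second differences of GV and 2C had a correlation of -0.0065 over 362424 bins. With the replicate number as a block, the log2 changes of covered length, peak number and median width were -1.13, -1.11 and 0.20, each with an exact p of 0.5, the smallest for 2 pairs. The sign of the width change was the same in both pairs, from 600 to 750 bp and from 800 to 850 bp. These pairs rest on the replicate numbers alone. With the other pairing, 600 to 850 bp and 800 to 750 bp, the signs are opposite.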

Other observations

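The X chromosome was left out of the counts above. H3K27ac covered 2.09% and 2.38% of it in the GV libraries and 0.413% and 0.410% in the 2C libraries. Of its 2322 GV bins, 1956 were lost (84.2%) and 146 kept, and 82 bins were gained. This percentage lost lies above the highest of the 29 autosomes, 72.3% on chromosome 1. The sex of the pooled embryos was not given, so the number of X copies at 2C is unknown, and its part in these values was not tested. Adding X to the autosomes brought the GV bins lost to 67.2%.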
